A study of Mus musculus with 2 samples.

Results

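Neutrophils of mouse blood that carried little haemoglobin RNA were taken from 2 droplet single-cell RNA libraries, 1 from db/db mice and 1 from wild-type (wt) mice. A barcode was counted as such a neutrophil when it had 200 to 6000 genes, under 10% mitochondrial UMIs (unique molecular identifiers, 1 per captured transcript), under 20% haemoglobin UMIs and at least 10 UMIs of S100a8 and S100a9 together. It also had to show at least 2 of the 6 genes Retnlg, Csf3r, Cxcr2, Mmp9, Slpi and Il1b, no UMI of Cd3d, Cd3e, Cd3g, Cd79a or Cd79b, and fewer than 3 of the 6 monocyte genes Ly6c2, Ccr2, F13a1, Fn1, Chil3 and Vcan. Members were thus chosen by their measured levels of the genes named here, and those levels are given below as a description only. These limits were met by 364 of 36612 barcodes, 263 of 19912 in the db/db library and 101 of 16700 in the wt library.

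The db/db mice carry a mutation of the leptin receptor gene Lepr and become obese and diabetic. Both groups were male C57BLKs/J mice aged 21 weeks, with 3 mice and 200 µl of retro-orbital blood per group, and both samples went through red cell lysis. The series title names the alteration of peripheral immune cells in type 2 diabetes as its subject. With 1 library per genotype and nothing that ties a cell to a mouse, no difference below has a test. The 95% intervals reflect only the error of counting molecules or, for shares of barcodes and their ratios, of counting barcodes.

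Neutrophils are short-lived phagocytes that leave the bone marrow fully formed, carry preformed granules of antimicrobial proteins and enter inflamed tissue along gradients of chemokines, complement and lipid mediators. S100a8 and S100a9 encode the subunits of calprotectin, which makes up much of their cytosolic protein. Csf3r encodes the receptor of G-CSF, the growth factor that drives their production, and Cxcr2 the chemokine receptor that draws them out of the marrow. Blood neutrophils also respond to type I interferon, which acts through Irf9 and its partners on a shared set of antiviral genes.

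Low-haemoglobin neutrophils made up 4.31% of the kept db/db barcodes (263 of 6109, Clopper-Pearson interval 3.81 to 4.84) and 1.76% of the kept wt barcodes (101 of 5727, 1.44 to 2.14). The ratio of these shares, db/db over wt, was 2.44 (1.93 to 3.10). Among kept barcodes that were themselves under the haemoglobin limit, the shares were 6.69% in db/db (of 3933) and 2.77% in wt (of 3645), a ratio of 2.41 (1.91 to 3.07). Both samples were lysed and captured before counting, and the part of these steps in the shares was not tested. With a limit of 5% mitochondrial UMIs, which kept 261 db/db and 98 wt neutrophils, the share ratio among kept barcodes was 1.89 (1.49 to 2.41).

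The neutrophils held few transcripts per cell. The median was 1399 UMIs and 674 genes per db/db neutrophil and 1798 UMIs and 820 genes per wt neutrophil, and the summed counts were 380448 and 179260 UMIs. Mitochondrial RNA took a median of 0.46% of UMIs in db/db and 0.47% in wt, against 4.04% and 5.11% in B cell barcodes of the same libraries. The libraries also differed in Gm42418 and haemoglobin. Gm42418, a locus that overlaps ribosomal RNA, took a median of 0.63% of UMIs per db/db neutrophil and 2.14% per wt neutrophil, and haemoglobin took 2.60% and 1.64%. The libraries shared 91 barcodes. None was a neutrophil in both, while 1 db/db and 2 wt neutrophils had a barcode that the other library also held.

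The limits of the rule passed near few barcodes, except the one on lymphocyte UMIs. Between 15 and 20% haemoglobin lay 4 db/db and 5 wt neutrophils, and between 20 and 25%, just outside, 4 and 2 barcodes. With 10 to 14 UMIs of S100a8 and S100a9 there were 4 db/db and 2 wt neutrophils, and 5 and 1 barcodes with 5 to 9. All members had at least 3 of the 6 neutrophil genes, and 159 db/db (60.5%) and 55 wt (54.5%) had all 6. A single lymphocyte UMI kept 8 db/db and 19 wt barcodes out, with a median of 138.5 and 248 UMIs of S100a8 and S100a9. With those barcodes let in, the share ratio was 2.12 (1.70 to 2.65).

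The genes that chose the cells are given as a description. Levels are CPM, the UMIs of a gene per 1000000 summed UMIs of the neutrophils of a library. S100a8 (chromosome 3, 90668978 to 90670035 in GRCm38) was at 38581 CPM in db/db and 38904 CPM in wt, and its neighbour S100a9 at 83439 and 77976 CPM. Csf3r was at 2957 and 3163 CPM, Cxcr2 at 2379 and 2639 CPM, and the cytokine gene Il1b at 5328 and 5578 CPM. Slpi, a protease inhibitor, was at 4510 and 4173 CPM, and Mmp9, the gelatinase of tertiary granules, at 1661 and 1523 CPM. The monocyte genes of the rule had few UMIs. Ly6c2 had 29 UMIs in db/db and 14 UMIs in wt, F13a1 14 and 8, Ccr2 2 and 5, Chil3 2 and 1, Fn1 1 and 0, and Vcan none in either.

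Retnlg differed more than the other neutrophil genes of the rule. This gene of the resistin family (chromosome 16, 48872621 to 48874496) was at 10982 CPM in db/db neutrophils and 3130 CPM in wt neutrophils, a ratio of 3.51 (3.21 to 3.84). After each cell was thinned to 1000 UMIs, it was seen in 210 of 234 db/db neutrophils (89.7%, 85.1 to 93.3) and 60 of 93 wt neutrophils (64.5%, 53.9 to 74.2). Thinning left out 29 db/db and 8 wt neutrophils that had fewer UMIs. Detection of Retnlg was 1 of the 6 ways to meet the rule, so its level is not independent of how the cells were chosen. In barcodes that met every other limit but held 20% or more haemoglobin, 59 in db/db and 21 in wt, the ratio was 3.46 (2.80 to 4.32), but the same limit on Retnlg and its 5 companions chose these barcodes too, so this value is no independent support. B cell barcodes held 2.69 CPM of it in db/db and 0.69 CPM in wt.

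Genes that did not enter the rule also marked these cells as neutrophils. After thinning, Msrb1 was seen in 98.7% of db/db and 97.8% of wt neutrophils, against 2.94% and 1.63% of B cell barcodes and 67.5% and 59.1% of monocyte barcodes. Mxd1, a repressor of Myc targets that rises late in neutrophil maturation, was seen in 82.5% and 78.5%, against 3.25% of db/db and 0 of 22 wt monocyte barcodes. Pglyrp1, a peptidoglycan-binding granule protein, was seen in 71.4% and 63.4%. Ly6g, the antigen used to sort mouse neutrophils, was seen in only 8.97% and 5.38%, with 0 of 2483 db/db and 0 of 2266 wt B cell barcodes.

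**Figure D1:**
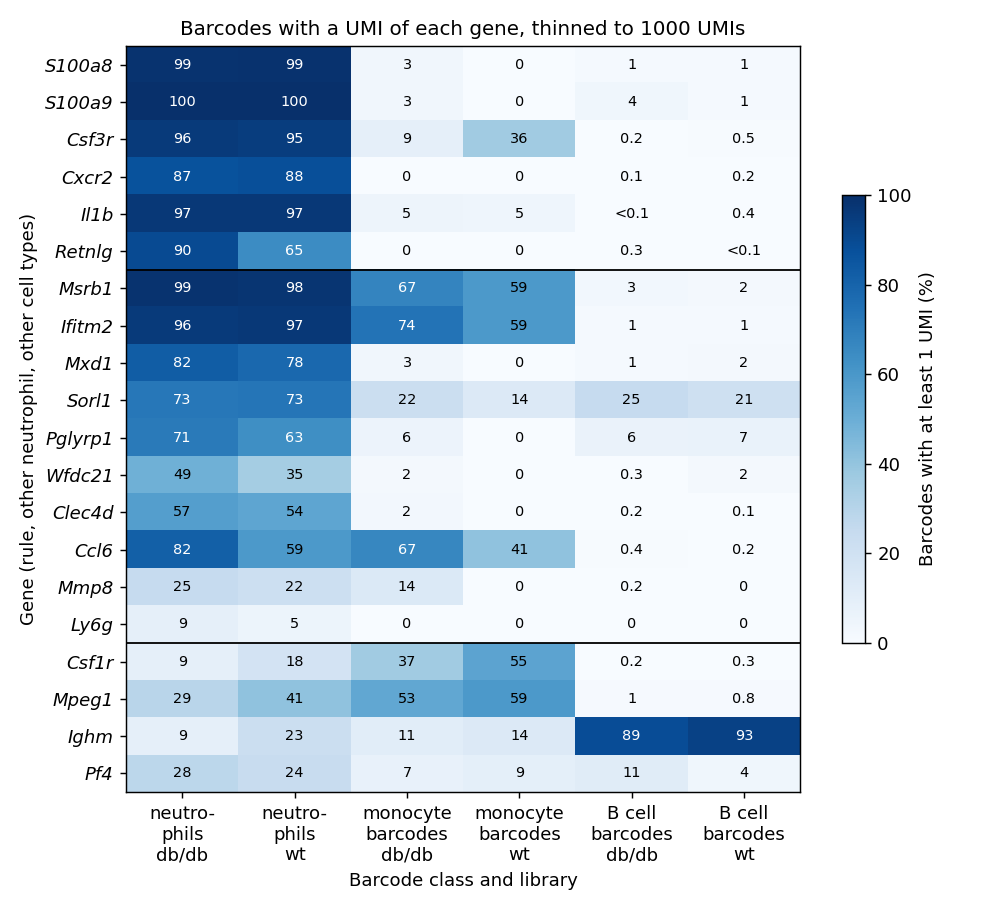
Percent of barcodes with at least 1 UMI of each gene after thinning to 1000 UMIs, for neutrophils, monocyte barcodes and B cell barcodes of each library, with genes of the rule above the first line and genes of other cell types below the second. S100a9 was seen in every thinned neutrophil, Retnlg in 89.7% of db/db and 64.5% of wt neutrophils, and Ighm in 8.97% and 22.6%.

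Markers of other cells were not equal in both libraries, and some lists were seen in most neutrophils. The 10 B cell markers outside the rule summed to 54 UMIs in db/db and 85 UMIs in wt neutrophils, and were seen in 16.3% and 53.5% of the cells. Their leader was Ighm, with 35 and 53 UMIs, while the 10 T cell markers outside the rule summed to 2 and 5 UMIs and the 11 NK cell markers to 3 and 1. Platelet markers summed to 797 and 328 UMIs and were seen in 50.6% and 46.5% of the cells. The 12 monocyte markers outside the rule summed to 371 UMIs in db/db and 224 UMIs in wt, a ratio of CPM of 0.78 (0.66 to 0.92). They were seen in 74.1% and 77.2% of the cells, led by Cd300a with 171 UMIs in db/db and Mpeg1 with 97 UMIs in wt. Cx3cr1, Ace and Cd300e were at 0 in both libraries. Dendritic cell markers, led by Cst3, were seen in 82.1% of db/db and 86.1% of wt neutrophils, and erythroid markers in 69.2% and 73.3%. Kidney tubule markers gave 37 UMIs in db/db and 0 in wt, where a count of 0 allows up to 3. The part of kidney tubule, monocyte, dendritic cell and T cell RNA in the results below was not tested. For platelet, B and NK cell markers, values with such cells left out stand beside each result that they moved by over 1.5 times. That setting leaves out neutrophils with at least 3 platelet UMIs or at least 2 B or NK cell UMIs and keeps 185 db/db and 56 wt neutrophils.

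Genes were compared as the log2 ratio of CPM plus 10, db/db over wt. The 3092 compared genes had at least 20 UMIs over both libraries together and were not among the single genes named in the rule. Of these, 89 were higher by 2-fold or more in db/db (2.88%) and 87 were lower by 2-fold or more (2.81%). The median log2 ratio was -0.02, and the central 95% of genes lay between -1.06 and 1.03. These shares of 2.88% and 2.81% are the background for the counts of list members below. Scaling by TMM (trimmed mean of M-values) in place of CPM moved the median of all genes to 0.12. The lowest ratio of all was that of Cxcl9, an interferon-gamma-induced chemokine named here after its values were seen, and its 29 wt UMIs came from 1 cell, with 0 UMIs in db/db.

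**Figure D2:**
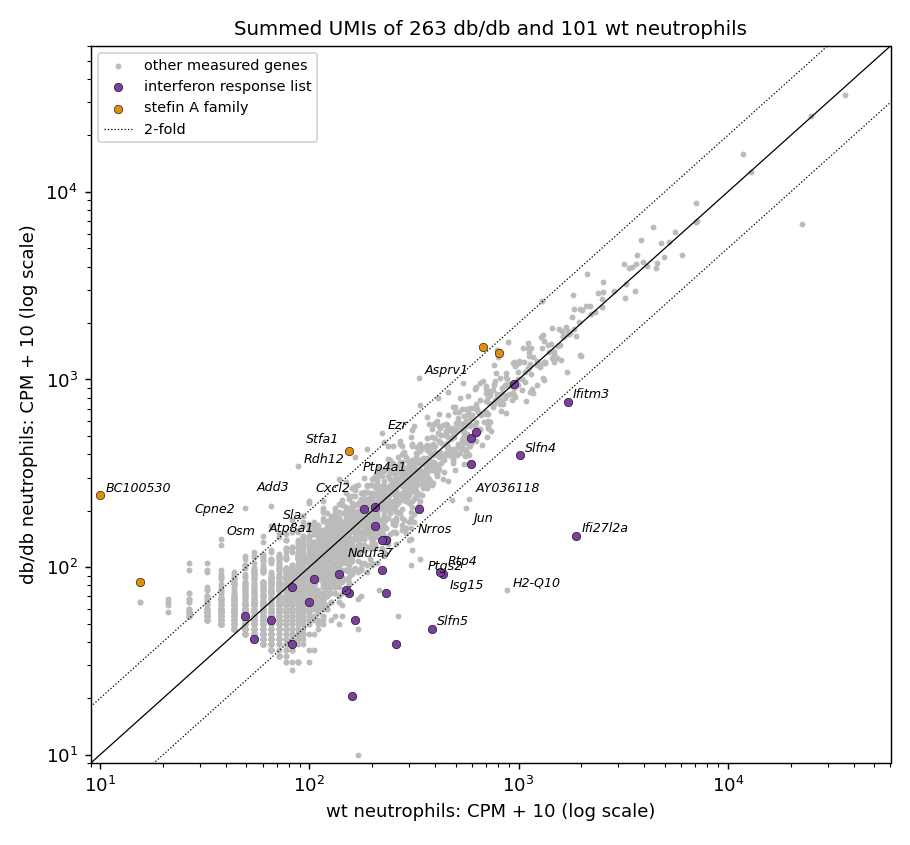
CPM plus 10 in db/db neutrophils against wt neutrophils for the 3092 measured genes, both axes on a log scale, with the interferon response list and the stefin A family in colour and the named genes labelled. Most genes lay between the dotted lines of 2-fold, with BC100530 farthest above them. By ratio, the point farthest below the lines is Cxcl9, and Ifi27l2a and H2-Q10 come next.

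Interferon response genes were on balance lower in db/db neutrophils. Of 64 listed genes 31 were measured, and 28 of them were lower in db/db neutrophils, 13 by 2-fold or more and none higher by 2-fold. The median log2 ratio of the measured members was -0.74, against -0.02 over all measured genes. Slfn5, Ifit1 and Ifit3 were among the members that reached the minimum of 20 UMIs through wt alone, and so had to be lower in db/db. This count and median are thus a description and no support, while the sum below needs no minimum. The whole list summed to 5767 CPM in db/db and 12496 CPM in wt, a ratio of 0.46 (0.43 to 0.49). Once cells with markers of other lineages were left out, the median was -0.62, with 10 of 26 measured members lower by 2-fold.

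Ifi27l2a, a small interferon-induced membrane protein gene (chromosome 12, 103442167 to 103443680), had 52 UMIs or 137 CPM in db/db and 335 UMIs or 1869 CPM in wt. Its log2 ratio was -3.68, and the ratio was 0.073 (0.054 to 0.098). After thinning it was seen in 6.84% of db/db neutrophils (3.96 to 10.9) and 39.8% of wt neutrophils (29.8 to 50.5). B cell barcodes held it at 224 CPM in db/db and 529 CPM in wt, so it was below its B cell level in db/db neutrophils and above it in wt neutrophils.

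Effectors of the antiviral response were lower as well. Isg15, a ubiquitin-like modifier, was at 81.5 CPM in db/db and 424 CPM in wt, with a log2 ratio of -2.25, which was -1.39 once cells with markers of other lineages were left out. Ifit1 and Ifit3 bind foreign RNA. Ifit1 was at 28.9 and 251 CPM (11 and 45 UMIs, 26 of the wt UMIs in 1 cell) and Ifit3 at 10.5 and 151 CPM (4 and 27 UMIs). Oas3, which senses double-stranded RNA, had a log2 ratio of -1.67, and Rsad2, or viperin, one of -0.98. Rtp4 was at 84.1 and 413 CPM. Ifitm3, which blocks the entry of viruses at endosomes, was at 749 and 1707 CPM, a ratio of 0.44 (0.37 to 0.52), and its log2 ratio of -1.18 was -0.75 once cells with markers of other lineages were left out.

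The Schlafen genes, which limit growth and viral replication, did not all differ alike. Slfn5 was at 36.8 CPM in db/db and 374 CPM in wt, with a log2 ratio of -3.04, and Slfn4 at 384 and 1004 CPM, with one of -1.36. Slfn1 was at 936 and 943 CPM, with a log2 ratio of -0.01, less than the TMM shift of 0.15, so its sign depends on the scaling. The proteasome genes Psmb8 and Psmb9, also on the list, were at 0.16 and 0.03.

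The upstream machinery differed less than the targets. Of 12 measured genes for sensing interferon, 1 was lower by 2-fold, Irf7, the factor that amplifies the response, at 63.1 CPM in db/db and 145 CPM in wt. Irf7 counts in both lists. The type I receptor genes Ifnar1 and Ifnar2 were at -0.43 and -0.57, with ratio intervals of 0.44 to 1.21 and 0.33 to 1.27 that include 1. The median of the list was -0.18.

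The promoter windows of 4 of the genes lower by 2-fold are shown because the interferon-stimulated response element, where Irf9 and its partners bind, lies close to the start of many such genes. The windows come from RefSeq on GRCm38.p6, run 5′ to 3′ on the strand of the gene from 250 bases before to 50 bases after its start, and have matches of GAAA, any 2 bases and GAAA, on either strand, in capitals. Overlapping matches run together.
Isg15 (chr4:156200769-156201068, minus strand): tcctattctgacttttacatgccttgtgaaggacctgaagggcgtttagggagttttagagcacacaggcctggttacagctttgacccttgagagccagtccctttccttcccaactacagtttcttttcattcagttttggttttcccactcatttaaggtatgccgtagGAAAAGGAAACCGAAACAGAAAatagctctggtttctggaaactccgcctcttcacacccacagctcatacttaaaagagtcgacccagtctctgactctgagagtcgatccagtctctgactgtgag
Ifit1 (chr19:34640639-34640938, plus strand): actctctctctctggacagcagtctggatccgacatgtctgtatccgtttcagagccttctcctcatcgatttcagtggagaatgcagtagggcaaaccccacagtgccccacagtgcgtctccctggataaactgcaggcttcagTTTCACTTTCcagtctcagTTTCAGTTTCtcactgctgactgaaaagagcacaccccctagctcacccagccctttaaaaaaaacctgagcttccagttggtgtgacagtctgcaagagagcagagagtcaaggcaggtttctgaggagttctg
Slfn5 (chr11:82951852-82952151, plus strand): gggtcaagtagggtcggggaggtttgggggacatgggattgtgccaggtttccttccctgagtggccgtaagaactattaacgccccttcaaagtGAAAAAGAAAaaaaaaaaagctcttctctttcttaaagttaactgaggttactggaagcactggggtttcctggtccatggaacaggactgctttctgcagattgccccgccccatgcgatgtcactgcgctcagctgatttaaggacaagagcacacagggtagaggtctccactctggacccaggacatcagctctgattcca
Ifitm3 (chr7:141010695-141010994, minus strand): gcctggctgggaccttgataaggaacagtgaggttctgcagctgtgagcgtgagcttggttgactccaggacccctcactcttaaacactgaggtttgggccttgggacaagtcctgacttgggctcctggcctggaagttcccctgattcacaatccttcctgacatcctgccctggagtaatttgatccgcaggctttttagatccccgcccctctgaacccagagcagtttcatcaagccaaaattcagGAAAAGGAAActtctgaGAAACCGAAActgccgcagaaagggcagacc
The Isg15 window held 3 overlapping matches that begin 78, 72 and 66 bases before the start, and the Ifit1 window 2 matches on the opposite strand, 104 and 85 bases before it. Slfn5 had 1 match 155 bases before the start. In Ifitm3 the 2 matches lay just after the start. Of the 13 interferon genes lower by 2-fold, 9 had a window and 6 of these a match (66.7%). The windows of Slfn4, Irf7 and Samd9l had none. The 4 windows shown were picked from the 6 genes with a match, by their summed UMIs. Of the other 18 measured interferon genes, 15 had a window and 7 a match (46.7%), while 3.99% of all 27025 genes with a window had one. A match of letters is no evidence of binding, and genes were listed for their known response to interferon.

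**Figure D3:**
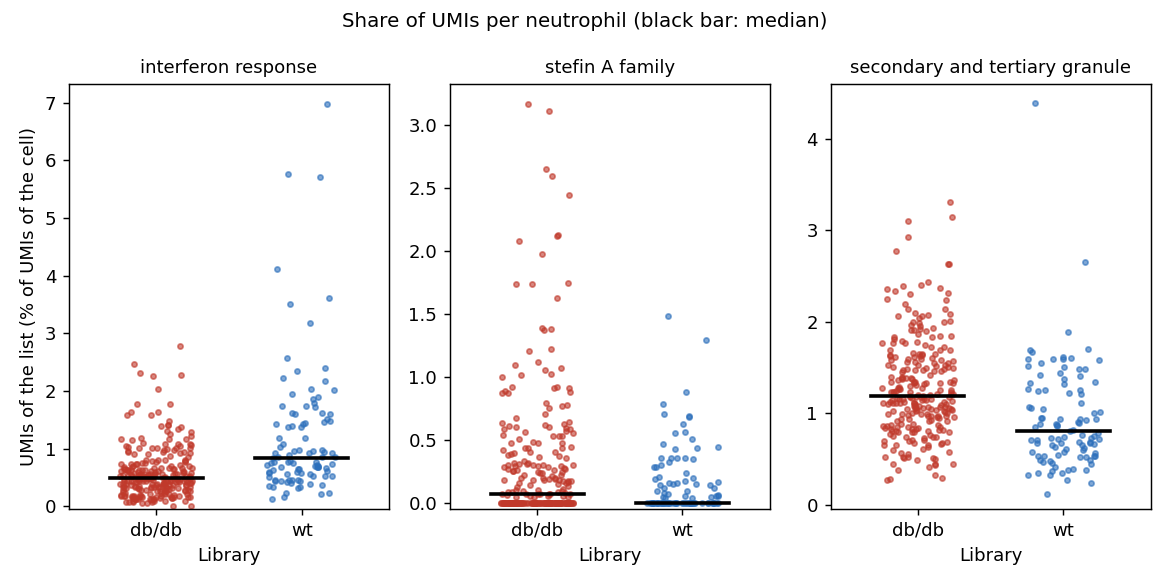
Percent of the UMIs of each neutrophil that came from the interferon response list, the stefin A family and the secondary and tertiary granule list, with 1 point per cell, a black bar at the median and db/db left of wt. The interferon medians were 0.49% in db/db and 0.84% in wt, and the highest cells reached 2.77% and 6.98%.

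The difference lay in the middle of the cells as well as in a high tail. The interferon list took a median of 0.49% of UMIs per db/db neutrophil, with quartiles of 0.31 and 0.73%, and 0.84% per wt neutrophil, with quartiles of 0.56 and 1.51%. After thinning to 1000 UMIs, more than 5 interferon UMIs were seen in 99 of 234 db/db neutrophils (42.3%, 35.9 to 48.9) and 72 of 93 wt neutrophils (77.4%, 67.6 to 85.4). More than 10 were seen in 11.1% and 36.6%. Weighing every cell the same gave a list median of -0.64. Some genes were held by few cells: the 3 richest cells held 35.5% of the Isg15 UMIs in each library.

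Other barcode classes carried the same list at other ratios. In barcodes that met the neutrophil limits but for their haemoglobin, the summed ratio was 0.30 (0.27 to 0.34). It was 0.61 (0.58 to 0.64) in monocyte barcodes, 125 in db/db and 22 in wt, 0.82 (0.81 to 0.83) in B cell barcodes and 0.86 (0.83 to 0.89) in T cell barcodes. The neutrophil interval of 0.43 to 0.49 lies below those of the monocyte, B and T cell barcodes. The list medians had another order, over the genes measured in each class. The median was -0.81 in monocyte barcodes, with 18 of 53 measured genes lower by 2-fold, against -0.74 in neutrophils. It was -1.49 in barcodes that failed the haemoglobin limit alone, -0.34 in B cell and -0.33 in T cell barcodes. The intervals cover counting error only, and the differences between classes were not tested.

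H2-Q10, a class I MHC gene whose product is secreted and which is best known from liver (chromosome 17, 35470089 to 35474563), showed a difference as large as that of Ifi27l2a. It had 25 UMIs or 65.7 CPM in db/db and 156 UMIs or 870 CPM in wt, a log2 ratio of -3.54. In db/db 64.0% of its UMIs lay in 3 cells, and after thinning it was seen in 3.42% of db/db neutrophils (1.49 to 6.62) and 46.2% of wt neutrophils (35.8 to 56.9). B cell barcodes had it at 13.8 and 10.2 CPM and T cell barcodes at 18.7 and 19.1 CPM, with ratios of 1.34 (0.95 to 1.91) and 0.98 (0.52 to 1.82). Barcodes that failed the haemoglobin limit alone had it at 4.31 and 335 CPM. Class I genes are near-identical in sequence, so reads may have been split between them by the counting.

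The rest of class I antigen presentation differed less. Of 12 measured genes 9 were lower in db/db, with H2-Q10 the only one past 2-fold, and the median was -0.36. B2m, the invariant light chain, was at 1317 CPM in db/db and 1986 CPM in wt, a ratio of 0.66 (0.58 to 0.76). H2-K1 was at 384 and 569 CPM, and H2-D1 at 4198 and 3927 CPM, a ratio of 1.07 (0.98 to 1.17). Once cells with markers of other lineages were left out, the median was -0.07.

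Neutrophil granules are laid down in order during maturation, and the genes of the later granules were on balance higher in db/db. Primary granule genes, made in promyelocytes, were nearly absent, with 8 UMIs in db/db and 7 UMIs in wt over 9 genes, 5 of which were at 0 in both. Of 26 genes of secondary and tertiary granules 15 were measured, 13 higher and 2 lower in db/db and none past 2-fold, with a median of 0.31. The list summed to 13342 CPM in db/db and 9517 CPM in wt, a ratio of 1.40 (1.33 to 1.48). With 1 lymphocyte UMI allowed the median was 0.57 over 20 measured genes, a setting that lets in 1 db/db barcode rich in precursor granule genes. The list was not particular to neutrophils. Monocyte barcodes held it at 28196 CPM in db/db and 30259 CPM in wt, a ratio of 0.93, yet with a median of 0.70 and 5 of 13 measured genes higher by 2-fold. The summed ratio was 1.67 in haemoglobin-rich, 1.23 in platelet, 1.17 in B cell and 0.85 in T cell barcodes.

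Lcn2, Hp and Anxa1 were among the granule genes with the highest ratios. Lcn2, which starves bacteria of iron by binding siderophores, was at 1580 CPM in db/db and 881 CPM in wt, a ratio of 1.79 with a lower bound of 1.5 and an upper bound of 2.15, and after thinning was seen in 53.0% and 26.9% of neutrophils. Hp, or haptoglobin, which binds free haemoglobin, was at 3630 and 2114 CPM. Anxa1, the annexin that curbs adhesion and mediates glucocorticoid effects, was at 1433 and 781 CPM. Lyz2, lysozyme, was at 1850 and 1824 CPM, a ratio of 1.01 (0.89 to 1.16). The precursor genes Camp, Ngp and Ltf had 1, 0 and 0 UMIs in db/db and 3, 5 and 5 UMIs in wt.

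The stefin A family, a cluster of cystatin-like inhibitors of cysteine proteases on chromosome 16, had a higher summed level in db/db. Of 14 listed genes 5 were measured, and all 5 had higher values in db/db, 4 of them by 2-fold or more, with a median log2 ratio of 1.43. BC100530 and Stfa2 passed the minimum of 20 UMIs through db/db alone and so had to differ, which makes this count and median a description and no support. With the cells that held markers of other lineages removed, the median was 2.22 and Stfa1 alone was at 3.08. The family summed to 1375 UMIs in db/db and 290 UMIs in wt, or 3614 and 1618 CPM, a ratio of 2.23 (1.97 to 2.54). Members are close paralogs, so the split of reads among them is uncertain, and the sum is the firmer value. In barcodes that failed the haemoglobin limit alone the summed ratio was 1.17 (0.88 to 1.56), an interval that includes 1.

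Stefin RNA was unevenly spread over the cells. Gm5483 was at 1482 CPM in db/db and 664 CPM in wt and Stfa2l1 at 1372 and 798 CPM. Stfa1 was at 407 and 145 CPM, and the 3 richest cells held 49.7% of its UMIs in db/db and 76.9% in wt. Stfa2 had 28 UMIs and 1 UMI, a ratio of 13.2 (2.18 to 539). BC100530 had 88 UMIs in 16 of 263 db/db neutrophils and 0 UMIs in wt, at least 13.8-fold higher in db/db when the wt count is set to 3. With BC100530 at that bound the family median was still that of Stfa1. No stefin UMI was seen in 119 db/db and 51 wt neutrophils, and more than 10 were seen in 9.83% and 1.08% of thinned cells.

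**Figure D4:**
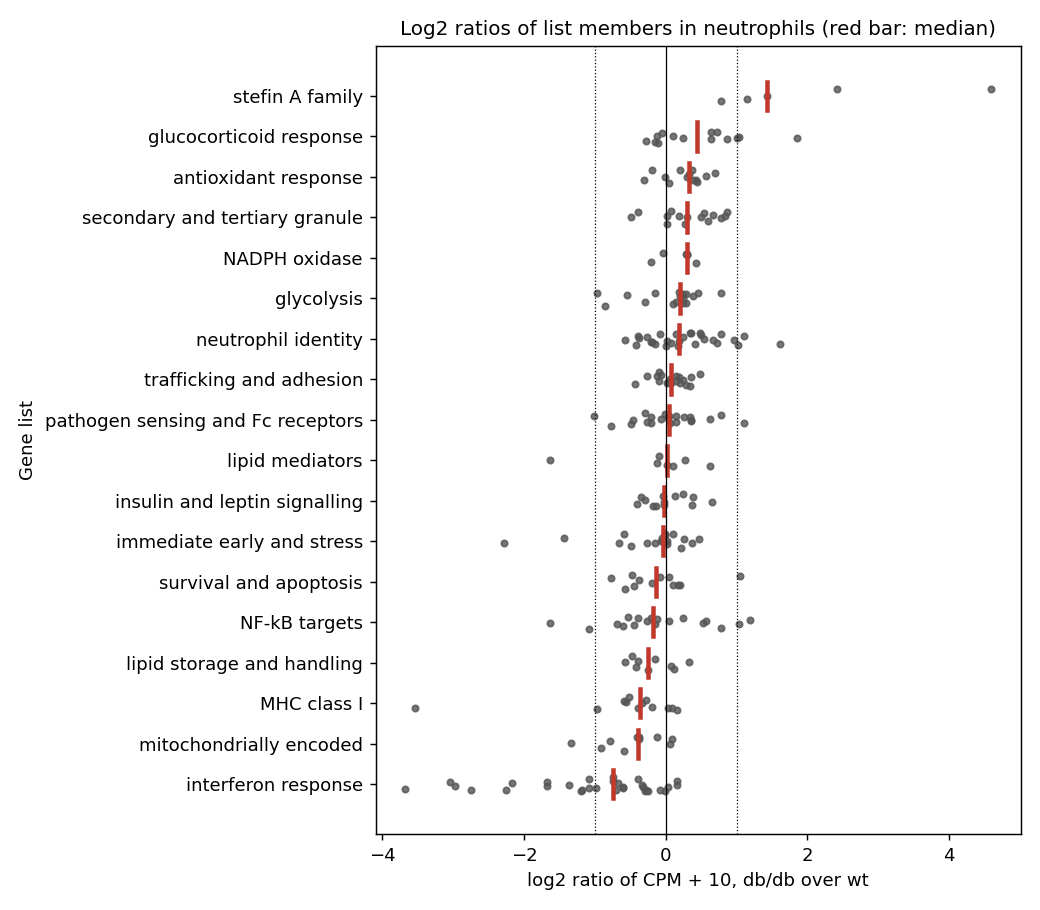
Log2 ratio of CPM plus 10, db/db over wt, of the measured members of 18 gene lists, with 1 point per gene and a red bar at the median of each list. The stefin A family had a median of 1.43, the interferon response one of -0.74, and the others lay between -0.39 and 0.44.

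Identity genes outside the rule had a summed ratio of 1.06 (1.03 to 1.09). Of 29 measured members 20 were higher and 9 lower in db/db, with 3 higher by 2-fold, none lower by 2-fold and a median of 0.19. The 3 were Asprv1, Trem1 and Ccl6. Asprv1, a retroviral-like aspartic protease also known from skin (chromosome 6, 86628164 to 86629710), was at 1015 CPM in db/db and 324 CPM in wt, a ratio of 3.14 (2.37 to 4.21). Trem1, a receptor that amplifies inflammatory signals, was at 287 and 128 CPM, and the chemokine gene Ccl6 at 2615 and 1289 CPM. G0s2, an inhibitor of lipolysis, had a ratio of 2.03 (1.22 to 3.55). Hdc, the enzyme that makes histamine, was at 883 and 1155 CPM.

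Further genes with high ratios were on no list. Rdh12, a retinal reductase, was at 334 CPM in db/db and 78.1 CPM in wt, a ratio of 4.27 (2.46 to 8.04), while B cell barcodes held it at 41.8 and 43.4 CPM. Cpne2, a calcium-dependent membrane-binding protein of the copine family, was at 197 and 39.0 CPM, and Osm, the IL-6 family cytokine oncostatin M, at 131 and 27.9 CPM. The log2 ratio of Cpne2 was 2.08, and 1.08 once cells with markers of other lineages were left out. Osm had only 5 UMIs in wt, and in barcodes that failed the haemoglobin limit alone it was at 21.5 and 64.8 CPM.

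Genes of the membrane skeleton and signalling followed. Ezr, or ezrin, which ties actin to the membrane, was at 510 CPM in db/db and 212 CPM in wt, and Add3, a subunit of adducin, at 202 and 55.8 CPM. Atp8a1, a phospholipid flippase, had a log2 ratio of 1.28, the phosphatase gene Ptp4a1 one of 1.23 and Sla, an adaptor that damps antigen receptor signals in lymphocytes, one of 1.15. In barcodes that failed the haemoglobin limit alone Atp8a1 lay the other way, at 43.1 CPM in db/db and 86.5 CPM in wt, a ratio of 0.50 (0.18 to 1.45), and in B cell barcodes its ratio was 0.70 (0.61 to 0.80). Sla was at 99.1 and 86.5 CPM in the barcodes that failed that limit. At the other end, Nrros, a negative regulator of reactive oxygen species, was at 131 and 296 CPM, and Ndufa7, a subunit of respiratory complex I, at 129 and 290 CPM. Where only the haemoglobin limit was failed, Nrros was at 34.5 CPM in db/db and 32.4 CPM in wt, and Ndufa7 at 60.3 and 75.6 CPM. AY036118, which like Gm42418 overlaps ribosomal RNA, was at 221 and 569 CPM, and it was lower in db/db B cell barcodes too, at 442 and 978 CPM.

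**Figure D5:**
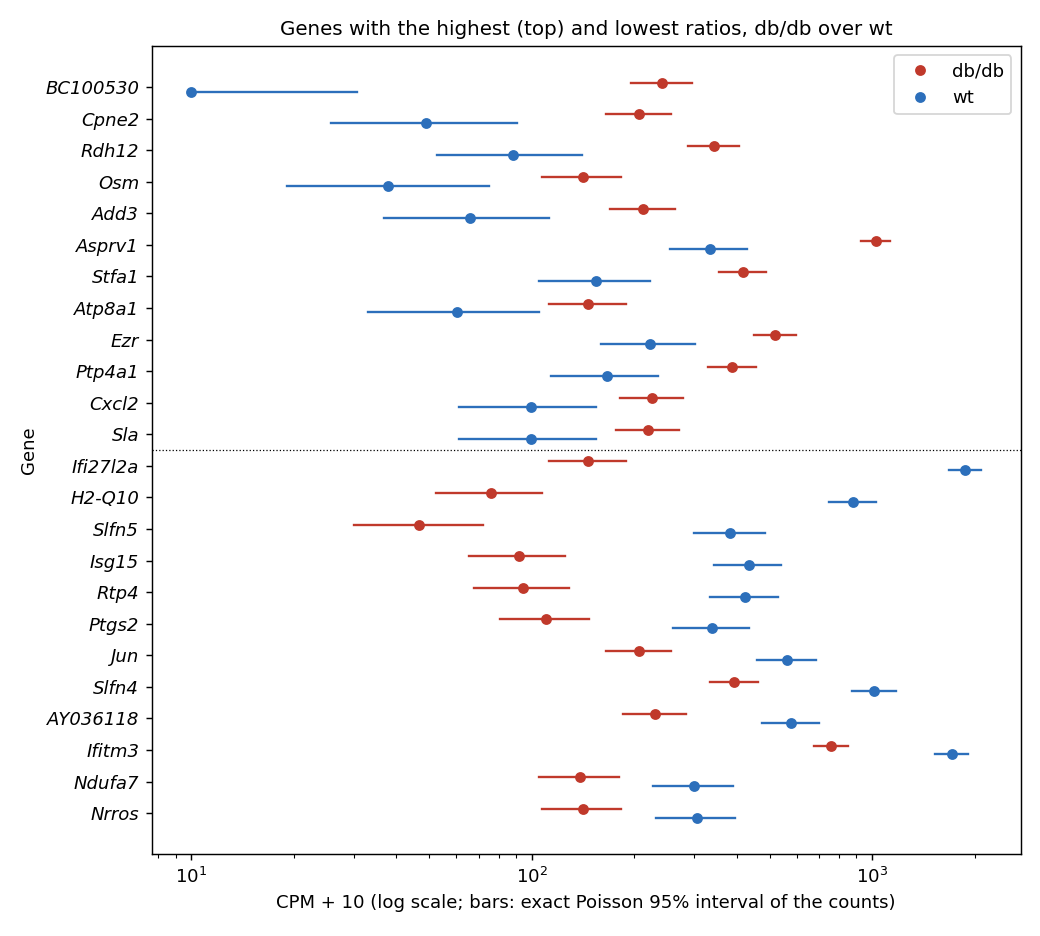
CPM plus 10 on a log scale in db/db and wt neutrophils for the 12 genes with the highest and the 12 with the lowest ratios that met the naming rule, with exact Poisson 95% intervals of the counts. BC100530 had 0 UMIs in wt, and Ifi27l2a was at 137 CPM in db/db and 1869 CPM in wt.

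Inflammatory genes under NF-kB went both ways, with 2 of 18 measured members higher and 2 lower by 2-fold and a median of -0.18. That sign turned, to 0.036, when cells with markers of other lineages were left out. Cxcl2, a chemokine that recruits further neutrophils, was at 216 CPM in db/db and 89.3 CPM in wt, and all 16 wt UMIs came from 3 cells. Its log2 ratio was 1.18, and 0.38 once cells with markers of other lineages were left out. Nfkbia, the inhibitor that feeds back on the pathway, was at 455 and 218 CPM. Ptgs2, cyclooxygenase-2, was at 99.9 and 329 CPM, a ratio of 0.30 (0.20 to 0.46), and Nfkb1 had 13 and 15 UMIs, with a log2 ratio of -1.08. In barcodes that failed the haemoglobin limit alone Ptgs2 was at 68.9 and 75.6 CPM.

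Immediate early genes, which respond within minutes to stimulation and to handling of cells, had a median of -0.04, which turned to 0.11 under TMM scaling. Egr1 had 17 UMIs in db/db and 46 UMIs in wt, a ratio of 0.17 (0.094 to 0.31), and Jun was at 197 and 552 CPM, a ratio of 0.36 (0.26 to 0.49). The most abundant member, Junb, was at 6863 and 7068 CPM, and Fos at 2694 and 3230 CPM. The other 17 of 19 measured members were within 2-fold.

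Glucocorticoid response genes had a median of 0.44, with 9 of 14 measured members higher and 3 of them by 2-fold. The median was 0.26 once cells with markers of other lineages were left out, 0.22 among neutrophils with at least 500 genes and 0.11 over genes with at least 50 UMIs. Fkbp5, a chaperone of the glucocorticoid receptor that its ligand induces, had 33 UMIs in db/db and 3 UMIs in wt, a ratio of 5.18 (1.63 to 26.4). In B cell barcodes its ratio was 5.23 (3.88 to 7.17). Tsc22d3, which encodes the leucine zipper GILZ, was at 1178 and 753 CPM, a ratio of 1.56 (1.29 to 1.91). Per1 and Zbtb16 passed 2-fold on 21 and 17 UMIs in db/db and 4 and 3 UMIs in wt, with intervals that include 1. Fkbp5 and Per1 reached the minimum of UMIs for measured genes through db/db alone, so that minimum favoured higher values in db/db. The count and median of this list are thus a description and no support. Cebpb was at 2802 and 1802 CPM, while the receptor gene Nr3c1 was at 200 and 245 CPM. Anxa1 counts in this list and in the granule list. The sum of the list, which needs no minimum, was at 13986 and 11681 CPM, a ratio of 1.197 (1.14 to 1.26). The summed ratio was 1.59 in B cell, 1.45 in T cell and 1.23 in monocyte barcodes, with an interval of 1.52 to 1.69 in haemoglobin-rich barcodes. It was 1.11 in barcodes that failed the haemoglobin limit alone and 0.86 in platelet barcodes. The differences between these classes were not tested.

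Receptors for microbes and antibodies differed little on balance: the median was 0.04 over 22 measured genes, with Trem1 higher and Fcgr4 lower by 2-fold. Fcgr4, an activating receptor for IgG, was at 94.6 CPM in db/db and 201 CPM in wt. Fcer1g, the signalling chain of Fc receptors, was at 2952 and 2851 CPM. The NADPH oxidase, which makes the oxidative burst, had a median of 0.30 over 6 subunits, with Ncf1 at 318 and 234 CPM. None of them was past 2-fold.

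Genes of trafficking and adhesion stayed within 2-fold. None of 19 measured trafficking genes was past it, with a median of 0.07. Cxcr4, which returns aged neutrophils to the marrow, was at 297 CPM in db/db and 357 CPM in wt, a ratio of 0.83 (0.61 to 1.15). Of 12 measured survival and apoptosis genes 5 were higher and 7 lower in db/db, 1 of them higher by 2-fold and none lower by 2-fold. Their median was -0.13, and 0.029 once cells with markers of other lineages were left out. Mcl1, the survival factor that neutrophils depend on, was at 3951 CPM in db/db and 3487 CPM in wt.

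Glycolysis, insulin and leptin signalling, lipid storage and antioxidant genes had no member past 2-fold. Glycolysis genes had a median of 0.20 over 17 members, from Hk3 at -0.96 to Gpi1 at 0.78, and Slc2a3, the main glucose transporter of neutrophils, was at 436 CPM in db/db and 357 CPM in wt. Insulin and leptin signalling genes were centred on -0.02 over 13 members and on 0.11 under TMM scaling, with Socs3 at 728 and 803 CPM and Ptpn1, a phosphatase that restrains both receptors, at 644 and 407 CPM. Lipid storage genes had a median of -0.25 over 9 members and antioxidant genes one of 0.33 over 13. Fth1, ferritin heavy chain, was at 8692 and 7040 CPM. Among 7 measured lipid mediator genes Ptgs2 alone was past 2-fold, and Alox5ap, which serves leukotriene synthesis, was at 2366 and 1952 CPM.

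The S100 genes outside the rule included S100a6, at 5543 CPM in db/db and 3860 CPM in wt, a ratio of 1.44 (1.32 to 1.57), and S100a11, at 6114 and 5567 CPM. Cell cycle genes were nearly silent, with 12 of 18 at 0 in both libraries and 2 measured. Ribosomal protein genes had a median of -0.21 over 79 members and mitochondrially encoded genes one of -0.39 over 10, with 1 member of each lower by 2-fold. The rule limits mitochondrial UMIs, so their values are a description only. Per cell, mitochondrial UMIs took a similar median of 0.46% in db/db and 0.47% in wt, with the highest cells at 6.06% and 9.30%. Gm42418, also lower in db/db, took a median of 0.63% and 2.14% of UMIs, and the part of RNA quality in these lists was not tested.

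Some genes varied far more from cell to cell than most. Over 629 genes the variance of thinned UMIs divided by their mean had a median of 1.12 in db/db and 1.13 in wt, near the value of 1 that counting alone gives. Malat1, a nuclear RNA, had 5.54 and 6.12 and Fth1 5.44 and 5.57. Ifitm1, an antiviral membrane protein, had 5.79 and 5.14, the stefin gene Gm5483 6.40 and 5.08, and Wfdc17 4.87 and 7.62. Lcn2 had 3.94 and 3.66. These genes were unevenly spread within both libraries, whereas mt-Cytb, encoded in mitochondria, had 2.03 in db/db and 5.81 in wt.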

How the data were processed

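Droplet single-cell 3′ RNA libraries of blood were deposited as raw counts, UMIs of 31053 genes in each barcode. Per the submitters' processing notes they were made with Cell Ranger 3.0.2 on mm10. The gene annotation, strand setting and cell calling settings are not given in the sources used here. The deposited counts had 70039773 UMIs in db/db and 50540198 UMIs in wt.

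Barcodes were chosen by the limits given above, and UMIs were summed per library with Python 3.11.15, numpy 2.4.6, scipy 1.17.1 and pandas 2.3.3. Levels carry exact Poisson intervals, shares Clopper-Pearson intervals and ratios exact conditional binomial intervals, all at 95%. UMIs come from pooled mice, so the intervals cover counting error only. The single genes named in the rule were left out of every list. Haemoglobin and mitochondrial genes, whose shares the rule limits, stayed among the measured genes and as lists of their own. Their values are a description only. No doublet caller was run: the limits on lymphocyte and monocyte genes took its place. B cell and T cell barcodes had at least 2 UMIs of Cd79a and Cd79b or of the Cd3 genes and none of the other set. Monocyte barcodes had at least 3 of the 6 monocyte genes.

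Named genes are the 12 highest and 12 lowest log2 ratios past 2-fold with at least 50 UMIs in the higher library. Their ratio interval excludes 1. Their CPM in that library was at least 10% of the highest among its B cell, T cell, monocyte, platelet and haemoglobin-rich barcodes. Only classes with at least 50 barcodes counted, so the 22 wt monocyte barcodes did not. Mitochondrial, ribosomal protein, haemoglobin, immunoglobulin and T cell receptor segment, Y-linked and unnamed genes and Xist were left out. List members with the highest level or largest ratio and cell type markers were named beyond this rule. The neutrophils, the gene lists and the comparisons were chosen with earlier results of these data known. The sums and ratios were tested on simulated counts drawn with counting error alone. Those counts held no added spread between cells, so the test says nothing about how the intervals fare with it. Scaling factors came from edgeR 4.0.16. GENCODE M21 gave gene positions on GRCm38, which is mm10, and promoter windows from RefSeq. Some listed genes are not reported here.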

Additional observations from a re-analysis of the deposited data

How the results depend on the processing

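No paired analysis was possible because each genotype has 1 library, and for the same reason no library could be left out. The share ratio of 2.44 ran from 1.89 to 3.10 over 7 alternatives, with 1.89 at a limit of 5% mitochondrial UMIs, where the ratio under the haemoglobin limit was 1.65. Counts past 2-fold followed the minimum and the pseudocount by construction: 25 higher and 27 lower with at least 50 UMIs, 376 and 611 with at least 1 UMI, and 16 and 21 with a pseudocount of 50 CPM. With a pseudocount of 1 CPM 135 genes were lower. TMM scaling gave 53 lower and median-of-ratios size factors 55, as both raise the log2 ratios.

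The interferon median was -0.58 with TMM, -0.63 with size factors, -0.62 without cells that carried other markers, -0.64 when every cell weighed the same, -0.61 with a pseudocount of 50 CPM, and -0.86 and -0.84 with minimums of 50 and 1 UMI. The stefin median was 2.22 without cells that carried other markers, 1.64 with 1 lymphocyte UMI allowed (an alternative chosen after seeing the data) and 1.15 with a pseudocount of 50 CPM. The granule median was 0.46, 0.57, 0.46, 0.42 and 0.40 without other markers, with 1 lymphocyte UMI, with TMM, with size factors and with at least 50 UMIs. The glucocorticoid median was 0.28 at 5% mitochondrial UMIs, 0.22 with at least 500 genes, 0.26 without other markers, 0.59 with TMM, 0.55 with size factors, and 0.11 and 0.61 with minimums of 50 and 1 UMI. The class I median was -0.071 without other markers, -0.22 with TMM, -0.25 with size factors and -0.26 with a pseudocount of 50 CPM. The NF-kB median was 0.036 without other markers, -0.045 with TMM, and 0.048 and -0.32 with minimums of 50 and 1 UMI, so its sign is not settled. The haemoglobin list had a median of 0.40, and of -0.025 with a haemoglobin limit of 50%. The rule limits haemoglobin UMIs, so these 2 values are a description only. The cause of these moves was not tested. No log2 ratio of the 24 named genes changed sign under the alternatives run.

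With 263 and 101 cells, genes under about 20 UMIs could not be compared at this depth.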

Other observations

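Precursor granule genes lay almost wholly outside the low-haemoglobin neutrophils of db/db. A single db/db barcode that met every limit but held 1 lymphocyte UMI carried 108 UMIs of Camp, 122 UMIs of Ngp and 69 UMIs of Ltf. All other db/db barcodes together held 1, 5 and 4 UMIs of these genes, and the whole wt library held 7, 6 and 7. These genes encode cathelicidin, neutrophilic granule protein and lactoferrin, which are made in marrow myelocytes. Their level in db/db neutrophils therefore depends on whether that barcode is let in. The granule median over the low-haemoglobin neutrophils, 0.31, does not hold it.

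The lymphocyte limit acted unequally on the libraries. It kept out 8 db/db and 19 wt barcodes on 1 UMI, beside 263 and 101 members, and B cell markers outside the rule were seen in 16.3% of db/db and 53.5% of wt members. The part of free B cell RNA in this was not tested.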
